A study of Mus musculus with 28 samples.

Results

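The response of mouse small-intestinal organoids to BMP7 was set against their response to Tgfb, gene by gene, to find the genes and programmes that followed only 1 of the 2 ligands. The comparison used 13 of the 28 RNA-seq samples of the series, chosen by their labels. They were 3 samples given recombinant Bmp7 (replicates II, III and VI) with 4 untreated controls (labelled noBMP, replicates II, III, IV and VI), and 3 samples given recombinant Tgfb with 3 untreated controls of their own (labelled TGFbeta and CTRL, replicates I, II and III). All 4 groups were wild-type C57BL/6 organoids, epithelial cultures grown from intestinal crypts that were seeded in ENR medium without ligand. Both ligands were given at 500 ng/ml for 24 h, and the labels name no isoform of Tgfb. The labels do not say whether replicates were separate cultures or came from separate animals, so every p-value measures the spread between these samples only.

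BMPs and Tgfb are related secreted ligands that bind pairs of type I and type II serine/threonine kinase receptors. BMP receptors mainly phosphorylate Smad1, Smad5 and Smad9, and the Tgfb receptor mainly phosphorylates Smad2 and Smad3. Both branches share Smad4 and induce the inhibitory Smads, and the Id genes are textbook targets of the BMP branch. In the small intestine BMP signalling is low in the crypt, where stem and dividing cells sit, and high towards the villus tip, and Tgfb is known for arresting epithelial cells in the cell cycle.

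The authors' tables for the 2 ligands differ in unit: BMP7 and its controls are in normalized counts, Tgfb and its controls in TPM, a length-scaled abundance with a fixed total, and each table was scaled on its own. An effect is the mean log2(value + 1) of the ligand samples minus that of their own controls, and the difference is the BMP7 effect minus the Tgfb effect, so a value above 0 means more rise or less fall with BMP7. Levels are not compared between the tables, and table, experiment and ligand cannot be told apart. Of 29366 genes found in both tables by Ensembl ID, 12050 had a mean of at least 10 normalized counts and at least 1 TPM and were tested with limma, with Benjamini-Hochberg adjustment over all of them and a threshold of 0.05. Depth was 21701566 to 24781434 recovered reads in the 7 samples of the BMP table, and the depth behind the TPM values is unknown. In these bulk samples, fewer cells of a type and less RNA per cell cannot be told apart.

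Epithelial marker genes were above 0 in every sample. Of 10 mesenchymal markers, the 8 in the BMP table summed to between 13.2 and 124 normalized counts, and all 10 summed to between 0.360 and 1.12 TPM in the Tgfb table. Col3a1 and Des were at 0 in every sample. The 8 immune and endothelial markers summed to 600 to 807 normalized counts and 1.34 to 3.61 TPM. In the BMP table most of this was Pecam1, at 569 to 774 normalized counts. Of 12 stress and RNA quality genes, 7 rose with each ligand (medians 0.89 and 1.34), among them Fos, Jun, Egr1, Atf3, Hspa1a and Hspa1b. Over all genes 21.1% rose with BMP7 and 29.8% with Tgfb. Of the 12, 2 had a called difference below 0 (3.78% of all genes). The epithelial markers summed to 148090 to 168390 normalized counts in noBMP and 296380 to 417100 with BMP7, and to 4324 to 4713 TPM in CTRL and 13888 to 18444 TPM with Tgfb. High genes such as Krt8 and Krt19 weigh most in these sums. Of the 11 markers, 7 rose and 1 fell with BMP7 (21.1% and 19.3% of all genes). With Tgfb 8 rose and 3 fell (29.8% and 32.3% of all genes). Cdx1 fell with both, from 2140 to 2380 normalized counts to 1300 to 1540, and from 84.5 to 91.4 TPM to 42.3 to 47.8 TPM. The library noBMP IV stood apart in stomach-type transcripts: Muc5ac, a gastric mucin, was at 680 normalized counts there and at 0 to 4.44 in the other 6 samples of its table. Gkn2, a gastric secreted protein, was at 680 there and at 0.830 to 6.22 in the others. Results led with below are therefore also given without this library where it moved them.

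Most genes that responded to BMP7 responded to Tgfb in the same direction and more strongly to Tgfb. BMP7 changed 4863 genes (40.4% of those tested, 2540 up and 2323 down), Tgfb changed 7484 (62.1%, 3595 up and 3889 down), and the effects differed for 1258 (10.4%, 803 above 0 and 455 below 0). Of the 4468 genes changed by both, 4463 moved in the same direction, and 86.3% of these had the larger absolute effect with Tgfb. Across the 12050 genes the slope of the BMP7 effect over the Tgfb effect was 0.746 (0.679 to 0.842 in the 3 BMP7 samples taken singly). It is the slope of the main axis of the scatter and not that of a regression. Pearson's r was 0.871, which is a description, since genes are not independent replicates. With the BMP table rescaled to the same total in each sample, the share of rises among BMP7 calls moved from 52.2% to 42.6% and the share of differences above 0 from 63.8% to 48.1%, and the median BMP7 effect of all genes from -0.03 to -0.10. The slope was 0.570 when the TPM values were first multiplied by a factor of 20.3, which puts both tables on a like total and makes the pseudocount of 1 equally small in each.

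**Figure D1:**
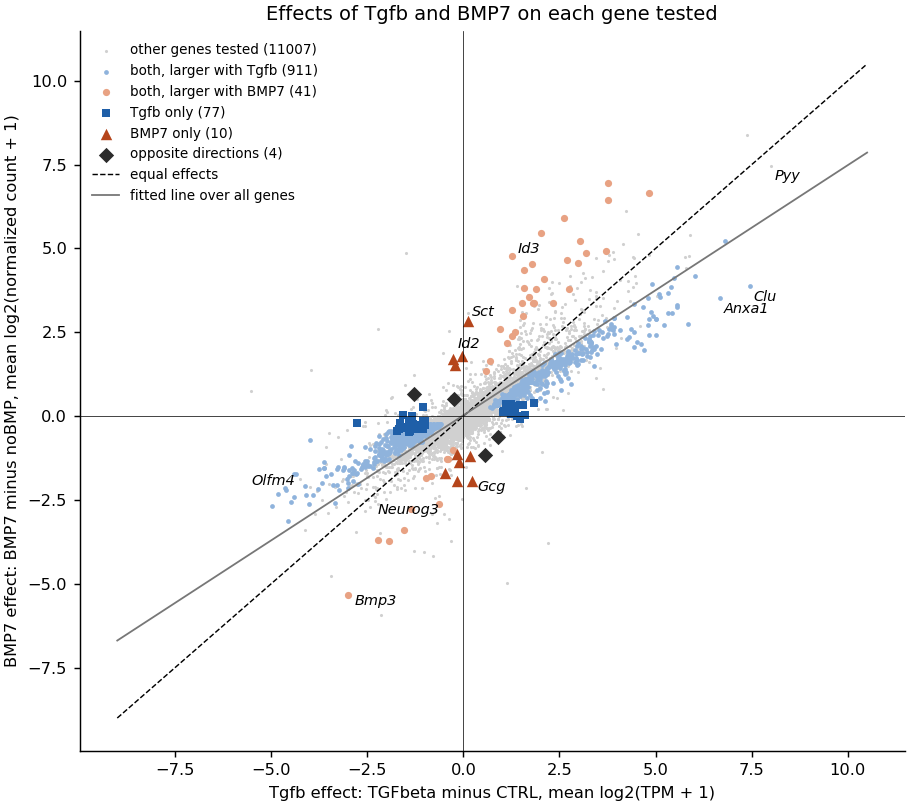
Effect of Tgfb (horizontal axis, log2(TPM + 1)) against the effect of BMP7 (vertical axis, log2(normalized count + 1)) for each of the 12050 genes tested, coloured by class, with the line of equal effects dashed and the fitted line (the main axis) in grey. Most coloured genes lie between the dashed line and the horizontal axis, and the 10 genes of the BMP7-only class lie close to the vertical axis.

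Strict classes were used for genes that followed 1 ligand only. Such a gene had to pass the threshold with an absolute effect of at least 1 for its ligand, miss it with an absolute effect under 0.5 for the other, and pass the test of the difference. Only 10 genes (0.083% of those tested, 4 up and 6 down) followed BMP7 only, 77 (0.639%, 19 up and 58 down) followed Tgfb only, and 4 (0.0332%) moved in opposite directions. This order depended on the filter, which left out 2425 genes low only in TPM and 694 low only in counts. With no filter, 73 rose and 69 fell with BMP7 only, and 18 rose and 70 fell with Tgfb only. The pseudocount of 1 shrinks effects near 0 TPM, so those counts are uncertain too. A further 911 (7.56%) changed with both and more with Tgfb, and 41 (0.34%) changed with both and more with BMP7. Replicate numbers paired the samples of the BMP table, and a replicate block there was an alternative added after the data were seen. With it the counts became 7 up and 6 down for BMP7 only, and 17 up and 18 down for Tgfb only. There were 14 opposite, 1410 larger with Tgfb and 67 larger with BMP7. The control noBMP IV had no BMP7 sample of its number, so the block takes it out of the BMP7 effect. Effect sizes with the block are therefore those without noBMP IV.

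The tested targets of the BMP branch mostly rose more with BMP7. Of 20 genes on the BMP target list, only 6 passed the filter and were tested. Id4, Smad9, Bambi, Atoh8 and Msx1 were left out by the TPM minimum alone. All 6 tested members rose with BMP7 and 5 rose with Tgfb, and the difference was past the threshold and above 0 for 5 (6.66% of all genes). Their median effect was 3.02 with BMP7 and 1.26 with Tgfb, against -0.03 and -0.04 over all genes tested. With single libraries left out, 3 to 5 of the 6 had a called difference. With the matched pseudocount 4 were above 0 and 1 below 0, and the median Tgfb effect was 1.88.

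Id3, an inhibitor of basic helix-loop-helix transcription factors, had the largest difference of the list. It read 33.7, 29.9, 20.4 and 32.2 normalized counts in the controls and 1240, 698 and 594 with BMP7. In the other table it read 2.50, 2.55 and 1.79 TPM in the controls and 5.85, 6.66 and 8.14 with Tgfb. Groups did not overlap in either table, and the gain was far greater with BMP7. The effect was 4.76 ± 0.27 (SE) with BMP7 and 1.26 ± 0.15 with Tgfb, and the difference of 3.50 ± 0.35 had an adjusted p of 0.000137 (limma, n = 3 and 4, 3 and 3).

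Id2, a second member of the same family, followed BMP7 only. Its controls read 413, 421, 241 and 310 normalized counts, and the BMP7 samples 1200, 1450 and 900. In the Tgfb experiment the controls read 14.8, 16.7 and 14.3 TPM, and the Tgfb samples 18.3, 14 and 12.4. The Tgfb samples thus lay on both sides of their controls, while every BMP7 sample lay above all of its own. Its BMP7 effect was 1.78 ± 0.22, its Tgfb effect was -0.04 with a 95% confidence interval of -0.38 to 0.30, and the difference of 1.82 ± 0.30 had an adjusted p of 0.00256 (limma).

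Id1, the third family member, rose strongly with both ligands. It went from 112 to 171 normalized counts in the controls to 1480 to 2330 with BMP7, and from 7.71 to 9.71 TPM to 49.5 to 79.2 TPM with Tgfb. The effects were 3.80 ± 0.19 and 2.75 ± 0.17. The difference of 1.06 ± 0.28 had an adjusted p of 0.0291 (limma), and the call was lost when any of 7 single libraries was left out (adjusted p up to 0.0718). Of the 3 Id genes, Id1 thus had the largest effect of Tgfb and Id2 had none past the threshold.

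The inhibitory Smads did not separate the ligands firmly. Smad7, which blocks receptors of both branches, rose by 2.87 ± 0.26 with BMP7 and by 3.49 ± 0.16 with Tgfb, and the difference of -0.62 missed the threshold (adjusted p = 0.308, limma), although with the matched pseudocount it was -1.25 (adjusted p = 0.0335). Smad6, which acts mainly on the BMP branch, rose by 3.17 ± 0.46 and 1.26 ± 0.11. Its difference of 1.91 ± 0.56 had an adjusted p of 0.0468, but the call was lost under 15 alternatives, among them the matched pseudocount (0.98, adjusted p = 0.284). Its control level was only 0.549 to 0.586 TPM, so it reached the minimum of 1 TPM only through the Tgfb samples. Tbx3, a T-box transcription factor listed as a BMP target, rose from 460 to 562 normalized counts to 1390 to 1890 with BMP7, and from 6.71 to 8.89 TPM to 11.7 to 14.4 TPM with Tgfb. Its difference of 0.95 ± 0.19 had an adjusted p of 0.00741 (limma). None of the receptor Smads Smad1, Smad2, Smad3 and Smad5, nor the shared Smad4, had a called difference.

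The promoters of Id3 and Id2, the Id genes with the largest differences, and of Sct are shown because these genes carry the BMP7 side of the comparison. Id3 rose with both ligands and more with BMP7, Id2 followed BMP7 only, and Sct was the strongest gene of the BMP7-only class. Each runs from 250 bases before to 50 bases after the RefSeq start on GRCm38.p6, 5′ to 3′ on the gene's strand. Capitals mark GGCGCC, a GC-rich element bound by BMP Smads that is its own reverse complement, and CAGAC, the Smad box, on either strand (GTCTG on the other). No marked matches overlap.
Id3, chr4:136143572-136143871, plus strand: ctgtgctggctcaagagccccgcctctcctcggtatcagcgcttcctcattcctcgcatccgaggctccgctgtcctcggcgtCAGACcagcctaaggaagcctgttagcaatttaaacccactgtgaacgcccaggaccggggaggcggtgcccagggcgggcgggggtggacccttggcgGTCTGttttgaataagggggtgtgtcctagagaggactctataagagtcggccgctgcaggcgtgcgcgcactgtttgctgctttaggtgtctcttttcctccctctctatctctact
Id2, chr12:25096043-25096342, minus strand: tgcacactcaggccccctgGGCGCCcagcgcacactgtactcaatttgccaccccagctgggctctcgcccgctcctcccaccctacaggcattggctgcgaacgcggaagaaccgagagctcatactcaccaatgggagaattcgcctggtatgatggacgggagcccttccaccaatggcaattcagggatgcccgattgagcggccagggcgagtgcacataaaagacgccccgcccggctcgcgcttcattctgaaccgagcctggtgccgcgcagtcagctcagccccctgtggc
Sct, chr7:141279084-141279383, minus strand: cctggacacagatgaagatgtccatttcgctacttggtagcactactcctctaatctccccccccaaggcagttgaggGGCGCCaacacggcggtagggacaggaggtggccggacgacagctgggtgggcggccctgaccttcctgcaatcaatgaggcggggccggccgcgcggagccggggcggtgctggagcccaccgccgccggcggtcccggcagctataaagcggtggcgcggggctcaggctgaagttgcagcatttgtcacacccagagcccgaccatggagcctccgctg
The Id3 window held CAGAC at -167 and, on the opposite strand, at -68 from the start, and no GGCGCC. Id2 held GGCGCC at -231 and Sct at -172, and neither held CAGAC. Over all 27025 windows, GGCGCC was present in 12% and, among the genes tested, in 21.6%, and CAGAC in 49.7% and 47.2%. Of the 26 genes larger with BMP7 that had a window, 2 held GGCGCC. A match describes these letters only and is no evidence of binding.

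No tested member of the list of textbook Tgfb targets followed Tgfb only. Of 23 tested members, 22 rose and 1 fell with BMP7 (40.4% of all genes were called with BMP7), and likewise 22 rose and 1 fell with Tgfb. The difference was called below 0 for 6 (3.78% of all genes) and above 0 for none, and the median effect was 2.04 with BMP7 and 2.83 with Tgfb. The matched pseudocount gave 14 below 0 and 1 above 0, the replicate block for the BMP samples gave 11 below 0, and leaving out single libraries gave 5 to 9. Pmepa1, a membrane protein that dampens Tgfb signalling, went from 535 to 730 normalized counts in the controls to 6250 to 9980 with BMP7, and from 5.66 to 6.52 TPM to 239 to 250 TPM with Tgfb. Its effects were 3.64 ± 0.16 and 5.10 ± 0.07, and the difference of -1.46 ± 0.20 had an adjusted p of 0.00106 (limma). Skil, a Smad corepressor, rose by 2.43 ± 0.11 and 3.37 ± 0.09, with a difference of -0.93 ± 0.15 (adjusted p = 0.00203, limma). With the Tgfb effects scaled by the slope of 0.746, 2 of the 23 had a called difference, 1 in each direction.

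Of the genes of hormone-producing cells, Sct rose and Gcg fell with BMP7 only. Enteroendocrine cells are rare secretory cells, and each subtype makes its own peptide hormones. Of 22 tested enteroendocrine genes, 4 rose and 5 fell with BMP7, and 6 rose and 3 fell with Tgfb. Over all genes 40.4% were called with BMP7, a share near that of the list, and 62.1% with Tgfb, a share above it. The difference was called above 0 for 2 (6.66% of all genes) and below 0 for 7 (3.78%). With single libraries left out, the difference was called above 0 for 1 to 2 and below 0 for 5 to 6, with the replicate block in the BMP table for 3 and 6, and with the matched pseudocount for 1 and 8. General markers of the lineage such as Chga and Chgb, which encode granule proteins, had differences of -0.15 and -0.28 with adjusted p-values of 0.771 and 0.45 (limma).

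Gcg, which encodes the precursor of glucagon-like peptides, fell with BMP7 only. Its controls read 678, 598, 389 and 554 normalized counts, and the BMP7 samples 156, 138 and 129. In the other table it read 95.4, 105 and 97.3 TPM in the controls and 105, 120 and 123 TPM with Tgfb. With BMP7 every sample lay far below its controls, and with Tgfb the lowest sample lay level with the highest control. The BMP7 effect was -1.94 ± 0.18 and the Tgfb effect was 0.22 (95% confidence interval 0.02 to 0.42, adjusted p = 0.0546, limma). The difference of -2.17 ± 0.22 had an adjusted p of 0.000137.

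Sct, which encodes the hormone secretin, rose with BMP7 only. It read 25.8, 29.0, 35.5 and 28.1 normalized counts in the controls and 207, 218 and 222 with BMP7. In the other table it read 7.18, 11.2 and 8.25 TPM in the controls and 6.94, 8.73 and 14.1 TPM with Tgfb, which overlapped. The effects were 2.83 ± 0.16 with BMP7 and 0.11 with Tgfb (95% confidence interval -0.49 to 0.71), and the difference of 2.72 ± 0.30 had an adjusted p of 0.000265 (limma). Sct and Gcg, both hormone genes, thus moved in opposite directions with BMP7.

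Neurog3, the transcription factor that commits progenitors to the endocrine fate, fell with both and more with BMP7. It read 123, 110, 193 and 123 normalized counts in the controls and 21.8, 23.7 and 18.3 with BMP7. In the other table it read 5.36, 4.45 and 5.83 TPM in the controls and 3.18, 2.35 and 3.47 TPM with Tgfb. The effects were -2.61 ± 0.23 and -0.64 ± 0.15, and the difference of -1.97 ± 0.29 had an adjusted p of 0.00127 (limma). Its highest control was noBMP IV.

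Other endocrine regulators lay on the same side, and are named here after their values were seen. Insm1, an endocrine zinc-finger factor, had effects of -1.27 and -0.39. Nkx2-2 and Rfx6, which specify hormone subtypes, were in the BMP7-only class at -1.71 and -1.12, with Tgfb effects of -0.46 and -0.16, but their differences missed the threshold with the matched pseudocount (adjusted p = 0.052 and 0.07, limma). Pax6 had a BMP7 effect of -0.92 and a Tgfb effect of 0.26, with a difference at an adjusted p of 0.0463 (limma). Among the peptides, Tac1 fell by 0.82 with BMP7 and stood at 0.12 with Tgfb, while Cck rose by 0.60 with Tgfb and stood at -0.12 with BMP7. Tph1, the enzyme of serotonin synthesis, rose by 1.35 with BMP7 and 0.58 with Tgfb. Pyy, the peptide YY gene, rose with both, from 0.830 to 2.66 normalized counts to 298 to 562 with BMP7 and from 0.611 to 0.741 TPM to 328 to 622 TPM with Tgfb, and its difference of -0.55 missed the threshold (adjusted p = 0.505, limma). It passed both minimums of the filter only through the ligand samples.

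**Figure D2:**
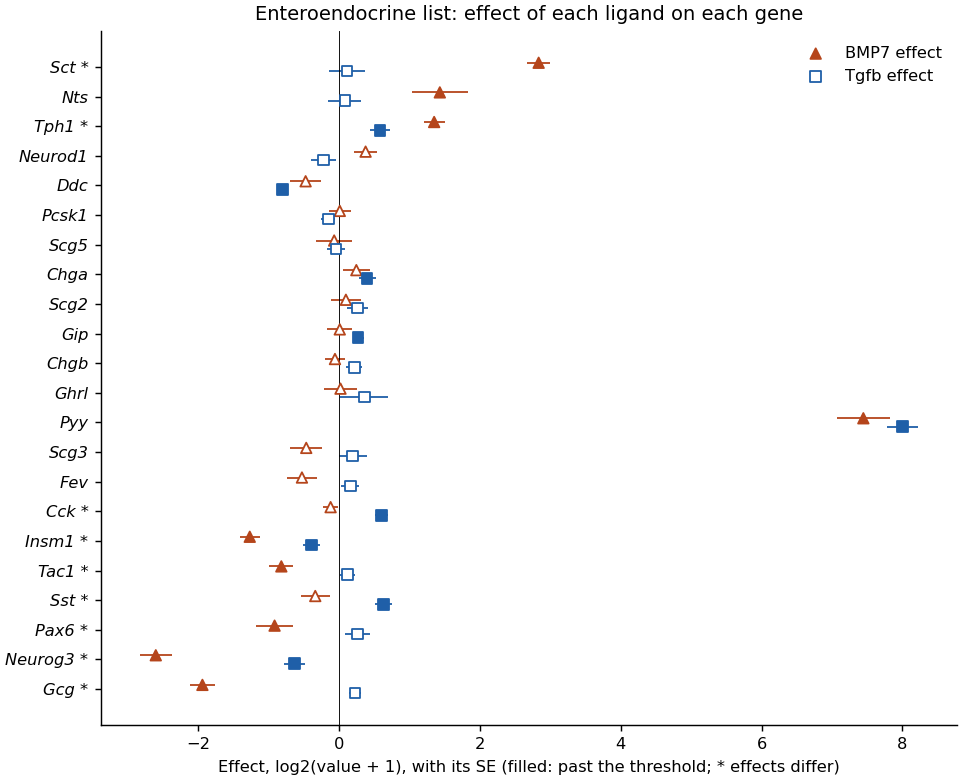
Effect of BMP7 (triangles) and of Tgfb (squares) on each of the 22 enteroendocrine genes tested, in log2(value + 1) with SE bars; filled symbols passed the threshold and an asterisk marks a called difference. Gcg and Neurog3 sit far to the left with BMP7 only or mainly, Sct far to the right with BMP7 only, and Pyy at the right edge with both.

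The rest of the BMP7-only class was small and mostly of low level. Apol10a, an apolipoprotein L gene, read 24.9 to 69.4 normalized counts in the controls and 112 to 164 with BMP7. Gvin-ps5 is an interferon-inducible GTPase pseudogene of a near-identical family, so its counts are uncertain. Among the genes that fell, Vim, the intermediate filament vimentin, read 132, 119, 180 and 166 normalized counts in the controls and 49.0, 62.9 and 85.6 with BMP7, against 7.95, 4.86 and 7.69 TPM in the controls and 6.33, 8.00 and 8.80 TPM with Tgfb. Its effects were -1.19 ± 0.22 and 0.17 (95% confidence interval -0.29 to 0.62), and the difference of -1.35 ± 0.32 had an adjusted p of 0.0167 (limma). The 8 mesenchymal markers found in that table, which do not include Vim, summed to 34.6 to 124 normalized counts with BMP7 and 13.2 to 49.7 in the controls. Gfra3, a receptor subunit of the GDNF family, and Nefm, a neurofilament, fell by 1.93 and 1.37 with BMP7 and stood at -0.17 and -0.11 with Tgfb. Of the 10 genes of the class, all 10 remained in it with the replicate block and without noBMP IV, and 8 remained with the matched pseudocount. The first 2 settings share their effect sizes and are not separate checks.

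Other BMPs in the same table were read beside these genes as levels, with no test, because they share the noBMP controls. Gcg was at 120 ± 64.7 normalized counts with BMP2 (SD, n = 4) and 94.0 ± 45.3 with BMP4 (n = 3), against 141 ± 13.7 with BMP7 (n = 3), and at 666 ± 158 with BMP3 and 509 ± 205 with BMP5 (n = 3 each). Sct was at 707 ± 239 with BMP2 and 672 ± 109 with BMP4, above the 216 ± 7.77 of BMP7, at 31.5 ± 6.45 with BMP3 and 75.9 ± 55.5 with BMP5. Id2 was at 1250 ± 569 with BMP2 and 2140 ± 314 with BMP4. For these 3 genes the mean levels with BMP2 and BMP4 lay on the BMP7 side of the controls. Apol10a and Gvin-ps5 did not follow that order: they were at 1507 ± 240 and 5107 ± 956 with BMP4, at 12.7 ± 12 and 66.1 ± 53.3 with BMP2, and at 143 ± 27.6 and 351 ± 92.1 with BMP7.

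**Figure D3:**
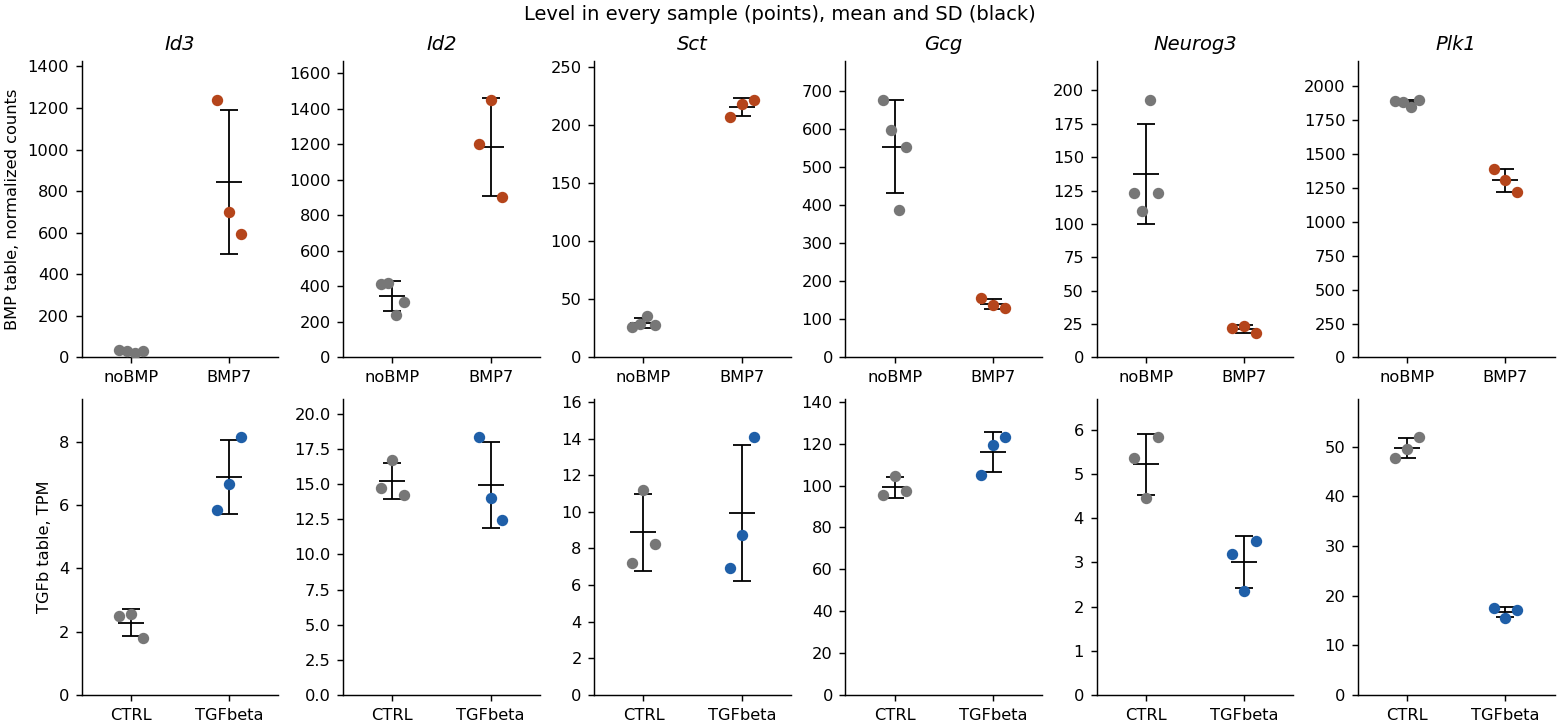
Level of 6 genes in every sample (points) with mean and SD (black), in normalized counts for noBMP and BMP7 (top) and in TPM for CTRL and TGFbeta (bottom). Id2, Sct and Gcg separate in the top panels and overlap or nearly touch in the bottom panels, while Plk1 separates more widely in the bottom panel.

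Genes of dividing cells fell more with Tgfb than with BMP7. All 25 tested genes of the proliferation list fell with Tgfb (32.3% of all genes fell), and 15 fell with BMP7 (19.3% of all genes). The difference was above 0 for all 25 and past the threshold for 24 (6.66% of all genes), and the median effect was -0.42 with BMP7 and -1.41 with Tgfb. The exception was Mki67, the Ki-67 antigen, whose BMP7 samples ranged from 4490 to 13100 normalized counts (difference 1.03, adjusted p = 0.149, limma). BMP7 VI was the lowest of the BMP7 samples for Mki67, Top2a and Cdk1. Without BMP7 VI the difference was called for 25 and 8 fell with BMP7, without noBMP III 9 fell, and with the replicate block 19 fell and 25 differed. With the Tgfb effects scaled by the slope, 13 of the 25 kept a called difference, all above 0.

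Plk1, a mitotic kinase, showed the pattern with the least scatter. It read 1890, 1880, 1850 and 1900 normalized counts in the controls and 1390, 1310 and 1220 with BMP7. In the other table it read 47.8, 49.6 and 51.9 TPM in the controls and 17.6, 15.6 and 17.0 TPM with Tgfb. Both ligands lowered it without overlap, and the fall with Tgfb was greater. The effects were -0.53 ± 0.07 and -1.52 ± 0.08, and the difference of 0.99 ± 0.10 had an adjusted p of 0.000129 (limma).

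Top2a, the topoisomerase that untangles chromosomes at division, fell with Tgfb only. Its controls read 12000, 10900, 11700 and 9080 normalized counts and the BMP7 samples 11300, 11900 and 6950, which overlapped. With Tgfb it fell from 171, 181 and 181 TPM to 72.4, 65.7 and 60.2 TPM. The effects were -0.15 (95% confidence interval -0.58 to 0.28) and -1.42 ± 0.08, and the difference of 1.26 had an adjusted p of 0.00484 (limma). Hells, a chromatin remodeller of replicating cells, and Mcm5, a subunit of the replicative helicase, fell with both, by 0.51 and 0.43 with BMP7 and by 1.67 and 1.5 with Tgfb.

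The class of 58 genes that fell with Tgfb only held 6 genes of the proliferation list. Among the 58 was Mybl2, a transcription factor of cycling cells, at 0.00 ± 0.15 with BMP7 and -1.34 ± 0.19 with Tgfb. Pbk, a mitotic kinase, stood at -0.35 and -1.65, Pola1, the catalytic subunit of DNA polymerase alpha, at -0.39 and -1.67, and Blm, a DNA helicase, at -0.32 and -1.6. Ccdc91, a coiled-coil protein, stood at 0.02 with BMP7 and at -1.56 with Tgfb. With the replicate block, the BMP7 effects of Pbk, Pola1 and Blm passed the threshold (adjusted p of 0.0012, 0.0192 and 0.0092, limma). Those of Mybl2 and Ccdc91 did not. Of the 58, 55 had a BMP7 effect below 0, with a median of -0.29. With the replicate block 46 of the 58 were called with BMP7, 11 remained in the class, and the difference was still called for 56. Without noBMP IV, 39 remained. The class held 156 genes without BMP7 VI and 136 with all 20 samples of the BMP table in the fit.

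**Figure D4:**
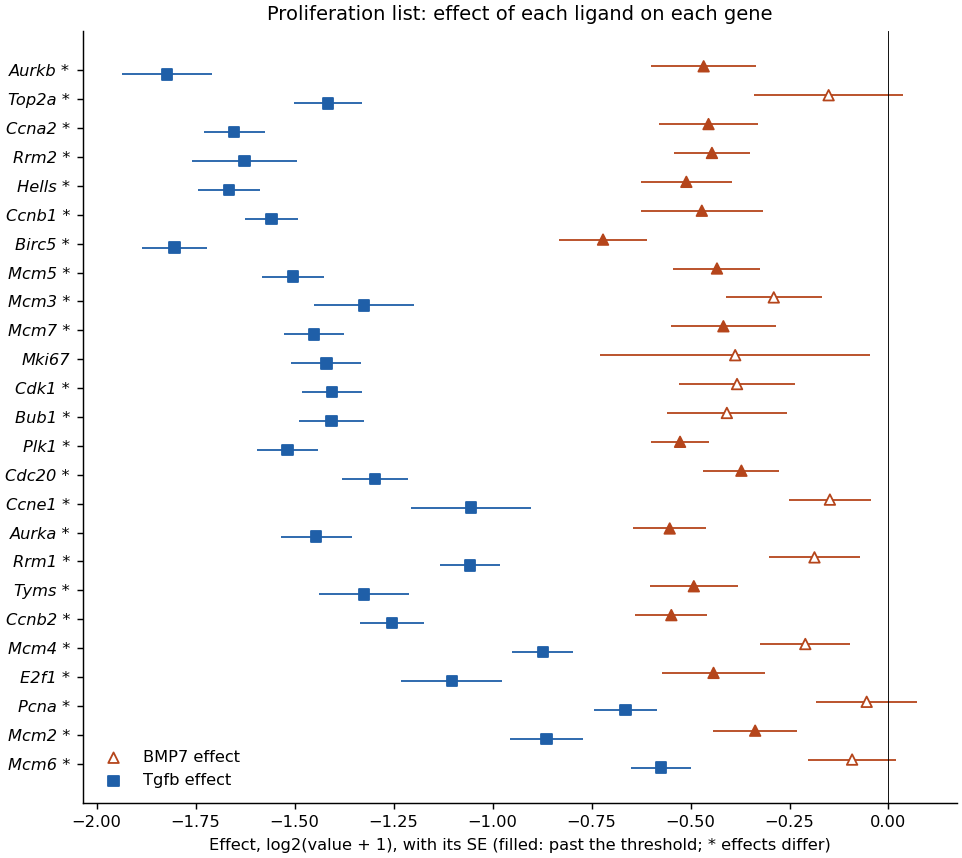
Effect of BMP7 (triangles) and of Tgfb (squares) on each of the 25 proliferation genes tested, in log2(value + 1) with SE bars; filled symbols passed the threshold and an asterisk marks a called difference. Every square lies to the left of its triangle, and 10 of the 25 triangles are open.

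The promoters of Plk1 and Cdk1, the main mitotic cyclin-dependent kinase, are shown because this programme carries the Tgfb side of the comparison. Capitals mark TTTGAA, the cell cycle homology region of genes expressed at division, and CCAAT, on either strand (TTCAAA and ATTGG on the other), in the same windows and build as above. No marked matches overlap.
Plk1, chr7:122159185-122159484, plus strand: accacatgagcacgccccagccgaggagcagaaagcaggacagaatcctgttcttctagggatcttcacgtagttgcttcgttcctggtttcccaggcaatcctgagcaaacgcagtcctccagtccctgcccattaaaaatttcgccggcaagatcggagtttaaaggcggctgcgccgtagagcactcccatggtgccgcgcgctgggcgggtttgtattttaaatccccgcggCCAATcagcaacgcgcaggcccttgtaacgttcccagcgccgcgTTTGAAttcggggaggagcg
Cdk1, chr10:69352863-69353162, minus strand: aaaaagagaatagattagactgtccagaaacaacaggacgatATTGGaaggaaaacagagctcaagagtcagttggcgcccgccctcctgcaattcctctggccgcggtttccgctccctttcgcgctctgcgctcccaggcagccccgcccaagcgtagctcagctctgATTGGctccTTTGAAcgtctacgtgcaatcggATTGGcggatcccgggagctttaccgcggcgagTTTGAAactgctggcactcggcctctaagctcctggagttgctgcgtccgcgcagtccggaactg
Plk1 held CCAAT at -14 and TTTGAA at 31 from the start. Cdk1 held TTTGAA at -71 and -15 and CCAAT on the opposite strand at -208, -80 and -48. Of the 22 proliferation genes with a window, 8 held both motifs (36.4%), against 5.28% of the 9244 windows of genes tested and 7.12% of all windows. Of the 44 genes with a window in the class that fell with Tgfb only, 11 held both (25%). These shares are a description without a test.

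Few genes rose with Tgfb only, and they formed no listed programme. Tmem229b, a transmembrane protein, read 153 to 225 normalized counts in the controls and 148 to 213 with BMP7, and went from 2.19 to 2.60 TPM to 8.57 to 10.0 TPM with Tgfb. Its difference of -1.59 ± 0.22 had an adjusted p of 0.00113 (limma). Nfat5, a transcription factor of the osmotic stress response, had effects of 0.40 ± 0.26 and 1.84 ± 0.12, and within replicate pairs its BMP7 rise passed the threshold (adjusted p = 0.000114, limma with the block). Atf7ip, a chromatin cofactor, stood at -0.02 ± 0.12 and 1.47 ± 0.19. Klf10, which is not on the Tgfb target list, stood at 0.18 ± 0.12 and 1.24 ± 0.17. Its difference of -1.07 ± 0.21 had an adjusted p of 0.00697 (limma). Alpi, the intestinal alkaline phosphatase of the enterocyte brush border, read 8910 to 13400 normalized counts in the controls and 9230 to 14400 with BMP7, and rose from 67.6 to 99.1 TPM to 194 to 238 TPM with Tgfb. Its BMP7 effect was 0.05 (95% confidence interval -0.37 to 0.47) and its difference of -1.24 ± 0.27 had an adjusted p of 0.011 (limma). Abcc5, an export pump, and 1700016C15Rik rose by 1.55 and 1.38 with Tgfb, and each difference was lost when any of 6 or 7 single libraries was left out. The Abcc5 difference was also lost with the replicate block in the BMP table. Its BMP7 rise passed the threshold there (adjusted p = 0.00741, limma with the block). Of the 19, 10 remained in the class with the replicate block and 14 without noBMP IV.

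Only 4 genes passed both tests in opposite directions with a called difference. Acer1, an alkaline ceramidase, rose from 35.7 to 46.3 normalized counts to 56.5 to 73.5 with BMP7 and fell from 2.10 to 2.57 TPM to 0.297 to 0.542 TPM with Tgfb. Its effects were 0.67 ± 0.19 and -1.28 ± 0.13 (adjusted p of the difference 0.000679, limma), without overlap in either table. It reached the minimum of 1 TPM only through its controls. Atp2a3, a calcium pump of the endoplasmic reticulum, had smaller effects of 0.51 ± 0.10 and -0.23 ± 0.08 (adjusted p of the difference 0.00262, limma). Amn1 and the gene model Gm5159 went the other way, at -0.63 and -1.16 with BMP7 and at 0.91 and 0.57 with Tgfb, and the groups of each overlapped in 1 of the 2 tables. Without noBMP IV, 2 of the 4 remained in the class. Lct, the brush border lactase, joined this class under the replicate block. It read 104, 176, 392 and 292 normalized counts in controls II, III, IV and VI and 244, 550 and 512 in BMP7 samples II, III and VI, so each BMP7 sample lay above the control of its own number while the groups overlapped. With Tgfb it fell from 10.9 to 20.2 TPM to 3.98 to 5.71 TPM. Its BMP7 effect was 0.93 ± 0.44 (adjusted p = 0.123, limma) and 1.22 with the block (adjusted p = 0.000185), and the difference was 2.44 ± 0.59 (adjusted p = 0.0185) and 2.73 with the block. The shift from 0.93 to 1.22 is that of leaving out noBMP IV, the highest control, which the block does.

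Programmes changed by both ligands were mostly changed more by Tgfb. The fetal-like and YAP list, genes of regenerating and fetal epithelium, rose for 17 of 19 with BMP7 (21.1% of all genes rose) and for 19 of 19 with Tgfb (29.8%). The difference was below 0 and called for 9 (3.78% of all genes), with medians of 2.14 and 3.39. Clu, the secreted chaperone clusterin, went from 2390 to 4110 normalized counts to 43100 to 56500 with BMP7 and from 16.5 to 27.2 TPM to 3589 to 4015 TPM with Tgfb. Its effects were 3.89 ± 0.19 and 7.45 ± 0.17, and its difference was the most negative of all called genes (-3.56 ± 0.27, adjusted p = 3.1e-05, limma). Anxa1 and Anxa3, membrane-binding annexins, rose by 3.52 and 2.14 with BMP7 and by 6.68 and 4.63 with Tgfb. With the Tgfb effects scaled by the slope, 3 of the 19 had a called difference.

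Matrix, laminin and integrin genes followed the same rule. Of 22, 20 rose and 1 fell with each ligand (21.1% of all genes rose with BMP7 and 29.8% with Tgfb), and 11 had a called difference below 0 (3.78% of all genes). Plaur, the urokinase receptor, rose by 2.35 ± 0.20 with BMP7 and 4.30 ± 0.17 with Tgfb (difference -1.95 ± 0.29, adjusted p = 0.00147, limma). Of 19 villus tip genes, 16 rose with BMP7 and 19 with Tgfb, and 3 had a called difference below 0, for Fos, Itgav and Cgn. That count was 2 to 9 with single libraries left out, 8 with the matched pseudocount and 7 with the replicate block in the BMP table, against the same shares over all genes. Fos is also on the stress list, which rose beside these genes, and its part in the result was not tested. Of 22 keratin and junction genes, 16 rose with each ligand, 3 had a called difference above 0 (6.66% of all genes) and 4 below 0. Krt7 rose by 2.32 ± 0.16 and 3.64 ± 0.12 (difference -1.32 ± 0.21, adjusted p = 0.00212, limma). With the Tgfb effects scaled by the slope, 1 matrix gene and 1 villus tip gene had a called difference.

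Stem cell genes split. Of 22 crypt stem genes, 6 rose and 10 fell with BMP7, 8 rose and 12 fell with Tgfb, and the difference was called above 0 for 7 and below 0 for 2. Over all genes, 21.1% rose and 19.3% fell with BMP7, 29.8% rose and 32.3% fell with Tgfb, and 6.66% and 3.78% had a difference above and below 0. Olfm4, a secreted stem cell marker, read 84000 to 110000 normalized counts in the controls and 18000 to 23400 with BMP7, and fell from 2150 to 2590 TPM to 91.8 to 98.1 TPM with Tgfb. Its effects were -2.20 ± 0.15 and -4.62 ± 0.09, and the difference of 2.43 ± 0.17 (adjusted p = 2.53e-05, limma) was still called at 1.25 after scaling by the slope. Lgr5, the receptor that marks crypt base stem cells, fell by 1.56 with BMP7 and 1.70 with Tgfb, and its difference missed the threshold. Cdca7, a gene of cycling crypt cells, fell by 0.78 and 1.89, and Ascl2, a stem cell transcription factor, stood at 0.30 with BMP7 and fell by 0.51 with Tgfb.

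Genes of absorptive and secretory functions fell in larger number than they rose with each ligand in the transporter, brush border, xenobiotic and goblet lists, beside 19.3% of all genes that fell with BMP7, 32.3% that fell with Tgfb and 6.66% with a difference above 0. Of 23 brush border genes, 10 fell and 3 rose with BMP7, and 13 fell and 5 rose with Tgfb. Of 23 nutrient transporters, 10 fell and 3 rose with BMP7 and 15 fell and 5 rose with Tgfb, with a called difference above 0 for 4 and below 0 for 1. The latter was Slc40a1, the iron exporter ferroportin, which rose by 0.46 ± 0.12 and 2.12 ± 0.19 (difference -1.66 ± 0.23, adjusted p = 0.00106, limma). Slc5a1, the sodium-glucose transporter, fell by 1.61 and 2.85. Of 20 bile acid and xenobiotic genes, 9 fell with BMP7 and 12 fell and 4 rose with Tgfb, with 5 called differences above 0. Cyp2b10, a cytochrome P450, fell with Tgfb from 149 to 186 TPM to 10.7 to 15.6 TPM (effect -3.57 ± 0.15) and read 2660 to 6450 normalized counts in the controls and 1360 to 3590 with BMP7, which overlapped (effect -0.92 ± 0.39, adjusted p = 0.092, difference 2.65 ± 0.50, adjusted p = 0.00542, limma). Of 16 goblet cell genes, 9 fell with BMP7 and 12 with Tgfb, and 3 had a called difference above 0. Agr2, a disulphide isomerase needed for mucin, read 2740 to 3650 normalized counts in the controls and 1580 to 2600 with BMP7, and fell from 260 to 310 TPM to 55.9 to 67.4 TPM with Tgfb (difference 1.61 ± 0.22, adjusted p = 0.000949, limma). Pigr, the receptor that carries antibodies into the lumen, fell by 1.53 ± 0.12 and 3.62 ± 0.12.

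**Figure D5:**
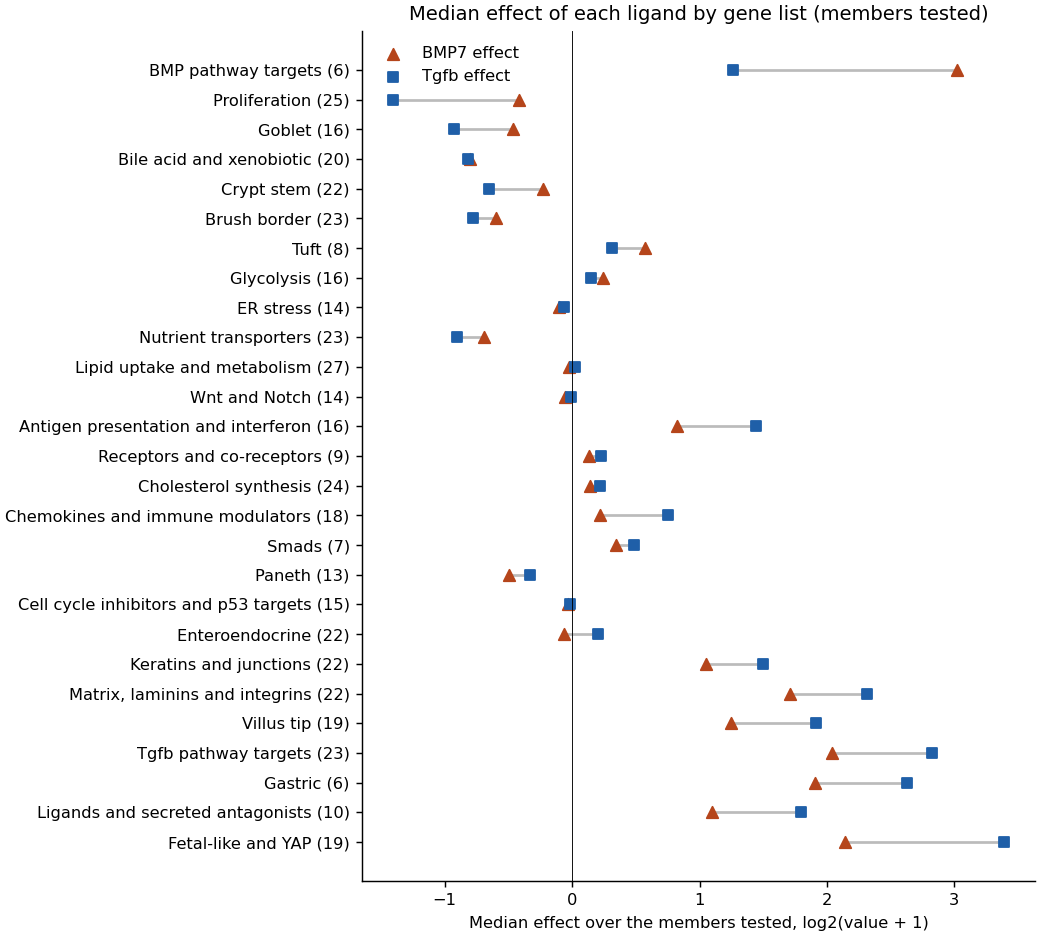
Median effect of BMP7 (triangles) and Tgfb (squares), in log2(value + 1), over the tested members of each list with at least 6 of them, ordered by the median difference, with the number tested in brackets. Tgfb lies farther from 0 than BMP7 in most lists, the BMP targets lie farther out with BMP7, and the proliferation list lies farther left with Tgfb.

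Several lists held no called difference. None of 27 lipid genes, 16 antigen presentation and interferon genes, 14 Wnt and Notch genes, 16 glycolysis genes, 14 ER stress genes or 8 tuft cell genes passed (10.4% of all genes did), although interferon-related genes rose for 10 of 16 with each ligand. Isg15, an interferon-induced ubiquitin-like protein, rose by 2.56 and 3.27. With the replicate block in the BMP table, 2 lipid, 2 glycolysis and 1 ER stress gene had a called difference, and with the matched pseudocount 1 lipid gene. A missed threshold does not show equal effects.

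The class of 41 genes larger with BMP7 rested on the pseudocount. A pseudocount of 1 shrinks the effect on a gene that is near 0 TPM in 1 of the groups. Krt14, a basal keratin, had effects of 6.45 ± 0.36 and 3.76 ± 0.15 at 0.0937 to 0.265 TPM in the controls, and its difference of 2.69 became 0.20 (adjusted p = 0.842, limma) with the matched pseudocount. It passed both minimums of the filter only through the ligand samples. Only 10 of the 41 remained in the class under that setting, among them Id3, Id1, Tbx3, Neurog3, Insm1 and Bmp3. Bmp3, a BMP family ligand, fell from 1330, 1000, 1290 and 1020 normalized counts to 25.4, 20 and 41.4 with BMP7, and from 13.4, 13.3 and 13.1 TPM to 0.566, 0.755 and 1.11 TPM with Tgfb. Its difference was -2.34 ± 0.30 (adjusted p = 0.000748, limma) and -1.33 (adjusted p = 0.0231) with the matched pseudocount. Its mean with Tgfb, 0.809 TPM, lay under the minimum of 1 TPM. All 911 genes larger with Tgfb stayed in their class under it.

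The slope of 0.746 depended on the filter, at 0.625 with minimums of 50 normalized counts and 10 TPM and 1.06 with no filter. Scaling the Tgfb effects by 0.746 sets the common slope between the effects aside. The difference was then called for 235 genes (181 above 0 and 54 below 0). Genes of the BMP7-only class had small Tgfb effects by definition, so this scaling could hardly move them. For genes changed by both and more with BMP7, it could only widen the difference, and all 41 of them were called. Of the others, 18 of the 58 and 6 of the 19 genes of the Tgfb-only classes, and 104 of the 911 genes larger with Tgfb were among them. By list, the called differences were 5 of 6 BMP targets, 13 of 25 proliferation genes and 7 of 22 enteroendocrine genes (2 above 0 and 5 below 0). Without scaling, 4 of the 6 BMP targets were larger with BMP7 and 1 was BMP7 only. Their count was thus nearly fixed in advance and lends no support. The same limit covers 3 enteroendocrine genes larger with BMP7 and 2 that followed BMP7 only.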

How the data were processed

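RNA was taken with RNeasy and made into KAPA mRNA Hyperprep libraries, per the labels' protocols. Trim Galore, Salmon, DESeq2 and the build GRCm39 are named in the submitters' processing notes, without versions or roles. The deposited BMP table holds normalized counts, a signal in which each sample's values are whole reads times 1 constant, at 0.826 to 0.962 normalized counts a read. Of 180236 values of at most 20 reads, 100% came out whole within 0.1 read. The deposited Tgfb table holds TPM. Genes were joined by Ensembl ID. Each table was put on log2(value + 1), so fold changes of low genes are understated. Effects and their difference were fitted with limma 3.58.1 in R 4.3.3 and tested on simulated data. edgeR 4.0.16 (quasi-likelihood) on the recovered reads called 4996 genes with BMP7, against 4863 with limma.

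The low-value filter left out 2425 genes that passed only in counts and 694 that passed only in TPM. Same-numbered BMP7 and noBMP samples deviated together (r of 0.337, 0.238 and 0.366 for the 3 pairs), so the labels' numerals were taken to pair them. The comparison and gene lists were chosen with earlier results of these data known. Genes were named by class, by size of difference and as list members, and others are named after their values were seen. Genes of near-identical families and antisense genes are uncertain, since the strand used in counting is not given in the sources used here. Promoter windows came from RefSeq on GRCm38.p6, and no coordinates of the 2 builds were mixed. Alternatives changed the pseudocount, filter, scaling, samples, block and left-out library. Some genes are not reported here.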

Additional observations from a re-analysis of the deposited data

Results flagged for a closer look

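Of the 85 named genes, 4 had a control that stood far from the other 3 by Dixon's test, all in noBMP IV. Chance gives such a gap in about 1 of 20 independent groups, but the named genes were selected and are not independent. In all 4 genes noBMP IV was the highest control, and the reason was not tested. Abcc5 was at 575 normalized counts in noBMP IV and at 398 to 425 in the other controls. Neurog3 was at 193 there and at 110 to 123 in the others. Ccl28, a mucosal chemokine, was at 1520 there and at 1100 to 1120 in the others. Hspa1b, a heat shock protein, was at 835 there and at 437 to 448 in the others.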

How the results depend on the processing

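The numbers of genes changed by BMP7 and by Tgfb stayed within 1.5 times under every alternative run, and the sizes of the classes did not. With the matched pseudocount 1979 genes differed, 45 rose with Tgfb only, 1484 changed with both and more with Tgfb, and 10 more with BMP7. With the coarser matched pseudocount 2 fell with BMP7 only, 38 rose with Tgfb only and 16 changed more with BMP7, and with a pseudocount of 0.1 the counts were 38 for Tgfb only up, 1406 more with Tgfb and 11 more with BMP7. With minimums of 50 normalized counts and 10 TPM, 1 rose and 1 fell with BMP7 only, 1 was opposite and 4 changed more with BMP7. With no filter 73 rose and 69 fell with BMP7 only, 18 rose and 70 fell with Tgfb only, and 143 changed more with BMP7. With the BMP table at the same total 31 rose and 26 fell with Tgfb only, and with all 20 samples of that table in the fit 136 fell. Scaled by the slope, 235 differed, and Lama3, a laminin chain, turned from -1.56 to 0.16 (adjusted p = 0.852, limma).

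The replicate block in both tables gave 2386 differing genes, 9 that rose with BMP7 only, 21 that fell with Tgfb only, 21 opposite, 1891 more with Tgfb and 64 more with BMP7. The numerals of the Tgfb table did not pair its samples (r of 0.0467, 0.0667 and 0.157). The replicate block in the BMP table only, added after seeing the data, gave 7 that rose with BMP7 only, 18 that fell with Tgfb only, 14 opposite, 1410 more with Tgfb and 67 more with BMP7.

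With each library left out in turn, 3713 to 4863 genes changed with BMP7, 6548 to 7484 with Tgfb, and 853 to 1608 differed. BMP7 only held 4 to 5 up and 4 to 8 down, and Tgfb only 14 to 46 up and 43 to 156 down, both highest without BMP7 VI. Opposite genes numbered 1 to 5, those more with Tgfb 597 (without BMP7 III) to 918, and those more with BMP7 26 to 42. The unknown depth of the TPM values and 3 to 4 samples a group limit the precision.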
